A study of Rattus norvegicus with 11 samples.

Results

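A set of 10 genes that act as brakes on signalling, of the 32623 genes in the deposited table, were followed through peripheral white blood cells (WBCs) of rats with collagen-induced arthritis (CIA). They were taken by gene name, and each name stood on 1 row of the table: the MAP kinase phosphatases Dusp1, Dusp2, Dusp4, Dusp5, Dusp6, Dusp10 and Dusp16, and the mRNA decay factors Zfp36, Zfp36l1 and Zfp36l2. The animals were male Wistar rats, 7 weeks old at the start. CIA was induced in 4 of them with bovine type II collagen in incomplete Freund's adjuvant, injected in the left hind paw and boosted on day 7. Blood of the same 4 rats was taken around day 8, at Nampt++ status, and around day 14, at Nampt+ status, and blood of 3 normal healthy control rats was taken as well. The Nampt++ and Nampt+ groups were set by the authors from their own PCR of Nampt, the enzyme that makes the NAD precursor NMN, so time after immunization and Nampt status cannot be told apart. The WBCs were the cells left after lysis of red blood cells, and poly(A) RNA was sequenced.

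MAP kinases pass signals from receptors of cytokines, growth factors and microbial products by phosphorylating their targets. Dual-specificity phosphatases (DUSPs) remove the activating phosphates from them, and many Dusp genes are themselves switched on by the same signals, which closes a feedback loop. ZFP36, also called tristetraprolin, and its relatives ZFP36L1 and ZFP36L2 bind AU-rich elements in the tails of cytokine mRNAs such as Tnf and bring in the CCR4-NOT complex, which shortens the poly(A) tail. In leukocytes both systems limit how long inflammatory mRNAs are made and kept.

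Levels are given as FPKM, the number of fragments of a gene corrected for its length and for the depth of the sample, which allows genes to be compared with each other. Total counts lay between 65340027 and 85819418 per sample. The 11 haemoglobin genes took 6.84% to 42.8% of them. Samples of a group differed by far more than counting error, so the number of rats limited the precision. Nampt itself had an FPKM of 46.5, 10.1, 36.1 and 30.6 in the libraries labelled Nampt++ of rats 1 to 4, 11.4, 14.3, 27.5 and 36.9 in those labelled Nampt+ and 20.3, 32.9 and 13.5 in controls. The library labelled Nampt++ of rat 2 was thus the lowest of all 11 for Nampt, and in rats 2 and 4 Nampt was higher in the library labelled Nampt+. Nampt++ and Nampt+ are therefore used here as names of the deposited groups, the first and the second bleeding, and not of the Nampt level in a library. Summed FPKM of the 7 neutrophil markers ran from 2068 in control 3 to 40180 in the Nampt++ sample of rat 1, which stood well above the second highest sample at 15450. Most of this sum came from S100a8 and S100a9, with mean FPKM of 3237 and 7669, against at most 221 for each of the other markers. The 7 retina markers, looked at because the deposited extraction protocol speaks of retinas, summed to at most 1.93 in any sample. In bulk samples of this kind, fewer cells of a type and less RNA per cell cannot be told apart.

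Promoters from 250 bases before to 50 bases after the start were found by symbol in RefSeq (build GRCr8) for 9 of the 10 genes. They are shown for the most abundant members, Dusp1 and Zfp36, and for the pair with the lowest p values between groups, Dusp6 and Zfp36l2. Capitals mark the motifs searched on both strands: the cyclic AMP response element or CRE (TGACGTCA), the AP-1 site (TGANTCA), the TATA box (TATAAA), the GC box (GGGCGG) and the CArG box, the site of serum response factor. Dusp1 lies at chr10:17184603-17184902 on the plus strand, Zfp36 at chr1:92799059-92799358 on the minus strand, Dusp6 at chr7:35979354-35979653 on the plus strand and Zfp36l2 at chr6:16242372-16242671 on the plus strand.
Dusp1: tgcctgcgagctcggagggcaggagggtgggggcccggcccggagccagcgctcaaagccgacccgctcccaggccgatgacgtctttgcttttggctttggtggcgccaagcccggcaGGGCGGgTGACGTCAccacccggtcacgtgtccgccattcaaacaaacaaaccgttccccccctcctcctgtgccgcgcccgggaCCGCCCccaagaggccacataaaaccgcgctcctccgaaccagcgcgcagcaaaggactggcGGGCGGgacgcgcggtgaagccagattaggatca
Zfp36: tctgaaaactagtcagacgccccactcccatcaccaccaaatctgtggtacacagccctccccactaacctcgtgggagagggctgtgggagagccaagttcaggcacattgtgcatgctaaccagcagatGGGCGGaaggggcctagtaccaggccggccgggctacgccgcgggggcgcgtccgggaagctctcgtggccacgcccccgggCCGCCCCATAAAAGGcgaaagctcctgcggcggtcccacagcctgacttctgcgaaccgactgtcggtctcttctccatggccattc
Dusp6: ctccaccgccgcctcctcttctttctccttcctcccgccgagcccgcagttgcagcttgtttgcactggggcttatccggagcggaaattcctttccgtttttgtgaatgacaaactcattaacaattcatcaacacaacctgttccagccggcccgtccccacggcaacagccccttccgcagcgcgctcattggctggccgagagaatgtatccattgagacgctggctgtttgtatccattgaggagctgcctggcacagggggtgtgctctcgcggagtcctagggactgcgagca
Zfp36l2: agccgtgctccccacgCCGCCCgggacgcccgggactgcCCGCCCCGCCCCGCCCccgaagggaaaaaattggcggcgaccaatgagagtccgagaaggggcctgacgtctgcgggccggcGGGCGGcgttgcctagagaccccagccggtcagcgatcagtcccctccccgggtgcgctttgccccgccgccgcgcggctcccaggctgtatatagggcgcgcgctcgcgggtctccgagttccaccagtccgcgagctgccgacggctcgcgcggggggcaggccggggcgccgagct
The CRE of Dusp1 began 124 bases before the start, and Dusp1 was the only member with this motif, which 1.83% of all 33469 promoters hold. Zfp36 had a CArG box 32 bases before the start that shares 1 base with a GC box, and Dusp5 had 2 CArG boxes side by side from 82 bases before its start. CArG boxes were found in 1.64% of all promoters. GC boxes were found in 7 of the 9 promoters and in 33.1% of all promoters, with 5 in Zfp36l2, and Dusp6 had none of the motifs searched. Zfp36l1 alone among the members had an AP-1 site (7.33% of all promoters) and a TATA box (14.2% of all promoters). Matches of this kind are descriptions of the letters and were not tested for binding.

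Zfp36 and Dusp1 were by far the most abundant members. Zfp36 had a mean FPKM of 620 over the 11 samples and Dusp1 of 599, ranks 147 and 154 among the 11242 genes whose mean FPKM reached 1. Dusp5 (123), Dusp2 (90.6), Zfp36l2 (76.2) and Zfp36l1 (50.3) followed at a lower mean FPKM. Dusp16 (24.9), Dusp10 (16.1) and Dusp6 (14.4) were lower still, and Dusp4 was hardly present at 0.968. All 10 members had counts above 0 in every sample. The steadiest was Dusp5, whose highest sample was 1.97 times its lowest, whereas Dusp2 varied 8.66-fold, Dusp1 6.95-fold and Zfp36 5.82-fold.

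**Figure D1:**
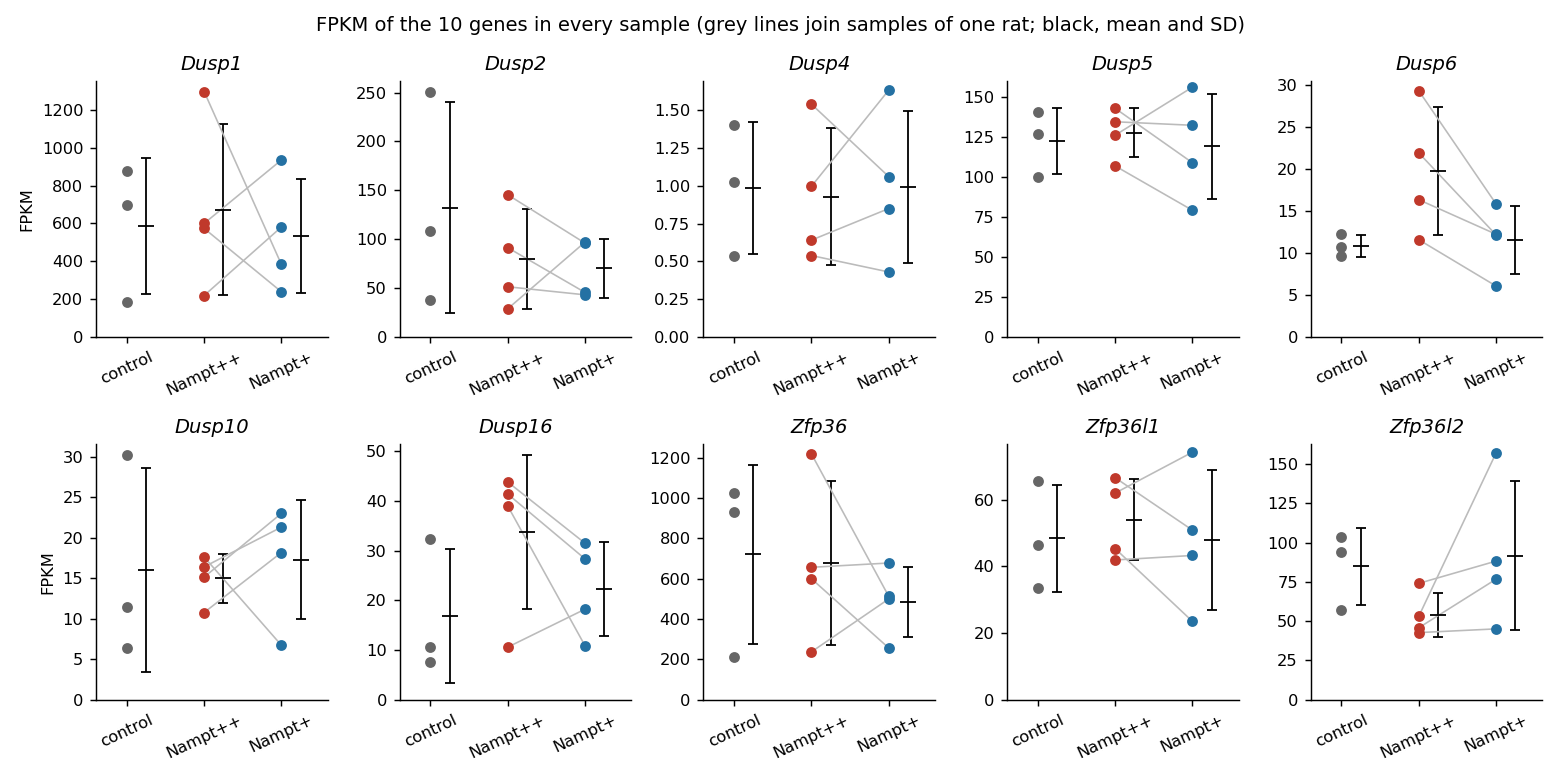
FPKM (y axis, linear) of each of the 10 genes in the 3 controls and in the Nampt++ and Nampt+ samples of the 4 CIA rats; dots are samples, grey lines join the samples of one rat, and black marks are the mean and SD of a group. Dusp6 was lower and Zfp36l2 higher at the Nampt+ end of all 4 lines, while the groups overlapped for every gene.

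Zfp36 and Dusp1 followed each other from sample to sample, and not the groups. DUSP1 is a nuclear phosphatase that acts mainly on p38 and JNK. In Nampt++ samples of rats 1 to 4, Dusp1 FPKM was 1296, 219, 574 and 600. In Nampt+ samples it was 383, 581, 239 and 935 in the same rats, and in the controls it was 697, 879 and 186. Each group thus held both high and low samples. Zfp36 FPKM was 1219, 238, 600 and 657 in Nampt++ samples, 513, 500, 257 and 678 in Nampt+ samples and 1023, 930 and 210 in controls. For both genes the Nampt++ sample of rat 1 was highest, and control 3, rat 2 at the first bleeding and rat 3 at the second were the lowest, in this order. The ratio of Zfp36 to Dusp1 FPKM stayed between 0.725 and 1.47 in all 11 samples. Together the pair took 0.0773% to 0.491% of all counts in a sample.

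Likeness was measured as the mean absolute difference between profiles of log2(FPKM + 1) centred on each gene's own mean, over 11 samples and the 4930 genes whose mean FPKM reached 10. By this measure Zfp36 was the nearest gene to Dusp1 and Dusp1 the nearest to Zfp36, at a difference of 0.19. The median gene stood at 0.86 from Dusp1 and 0.78 from Zfp36. The next 4 genes for Dusp1 were AABR07041096 (0.24), Arap3 (0.24), Junb (0.28) and the glucose transporter gene Slc2a3 (0.28). Those for Zfp36 were Junb (0.23), Cebpb (0.35), AC134224 (0.35) and AABR07041096 (0.35). Junb encodes an AP-1 subunit and belongs to the immediate early genes, and Cebpb encodes a transcription factor of myeloid cells. No other member came near: the closest to Dusp1 was Dusp16 at 0.71, and the farthest was Dusp10 at 1.12. Leaving out each sample in turn kept the difference between Dusp1 and Zfp36 at 0.15 to 0.20. Zfp36 became second to Dusp1 without the Nampt++ sample of rat 4 and the third when the Nampt+ sample of rat 3 was dropped, which also made Dusp1 second to Zfp36. The summed neutrophil markers ran from 2068 in control 3, 2875 in the Nampt++ sample of rat 2 and 3653 and 5050 in the Nampt+ samples of rats 1 and 3 to 40180 in the Nampt++ sample of rat 1. Those 4 low samples were also the 4 lowest for Dusp1. For Zfp36 the order was less alike: control 1 was second highest with a neutrophil sum of 7158, and the Nampt+ sample of rat 2, with the second highest sum of 15450, stood at 500, below 7 others. The part of neutrophils in these levels was not tested.

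**Figure D2:**
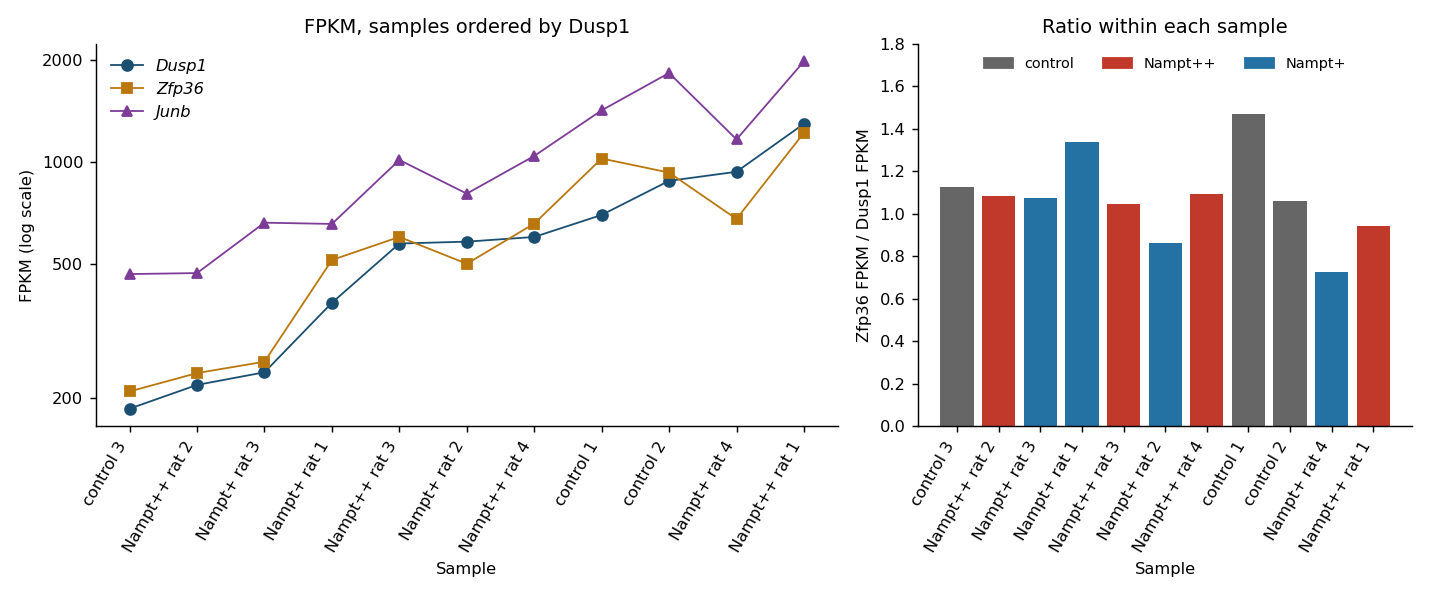
Left, FPKM of Dusp1, Zfp36 and Junb (y axis, log scale) in the 11 samples ordered by Dusp1; right, the ratio of Zfp36 to Dusp1 FPKM in the same samples, coloured by group. Both genes climb from 186 and 210 in control 3 to 1296 and 1219 in the Nampt++ sample of rat 1, and the ratio stays between 0.725 and 1.47.

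Between groups, Dusp1 and Zfp36 differed by less than the spread within them. The log2 fold change of Dusp1 from edgeR was -0.10 (SE 0.58) for Nampt+ against Nampt++, -0.05 (SE 0.71) for Nampt++ against controls and -0.16 (SE 0.74) for Nampt+ against controls. For Zfp36 the same contrasts gave -0.26 (SE 0.50), -0.31 (SE 0.68) and -0.57 (SE 0.67). Within rats, Dusp1 in Nampt+ samples was 0.296, 2.65, 0.416 and 1.56 times its Nampt++ level in rats 1 to 4, so 2 rats went each way. The SEs leave room for changes in either direction.

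The comparison between the CIA groups set the first bleeding, chosen for high Nampt in the PCR, against the second bleeding of the same rats, although Nampt in these libraries was higher at the first bleeding in rats 1 and 3 only. For a gene to be called, its mean FPKM had to be more than 2 times or less than 0.5 times that of the other group, with an unadjusted p under 0.05 in edgeR's quasi-likelihood test. No member was called in any of the 3 comparisons. Of all genes tested, 0.642% were called for Nampt+ against Nampt++, 0.686% for Nampt++ against controls and 0.497% for Nampt+ against controls. No gene at all had an adjusted p under 0.05 in edgeR with Benjamini-Hochberg adjustment, that is 0% in each comparison. At an unadjusted p under 0.05 there were 2 members of 9 tested for Nampt+ against Nampt++ (2.28% of all genes), the same 2 for Nampt++ against controls (1.57% of all genes) and none for Nampt+ against controls (0.87% of all genes). These were Dusp6 and Zfp36l2. For none of the members did the samples of a pair of groups stay apart by FPKM, which 0.41%, 1.1% and 0.444% of all genes did in the 3 comparisons. Dusp4 was below the filter of a mean FPKM of 1 and was compared only by the exact permutation test.

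**Figure D3:**
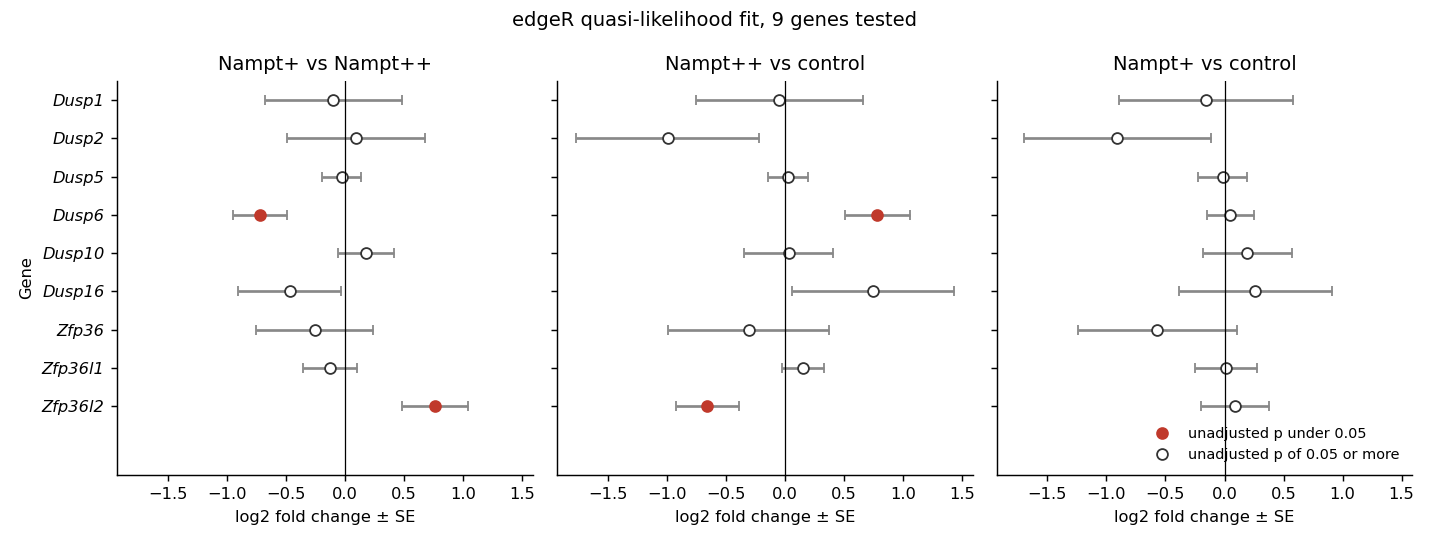
log2 fold change (x axis) with its SE for the 9 genes tested by edgeR in the 3 comparisons; filled red dots have an unadjusted p under 0.05. Dusp6 and Zfp36l2 are the only filled dots, on opposite sides of 0, and both sit near 0 for Nampt+ against controls.

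Dusp6, which encodes a cytoplasmic phosphatase specific for ERK, was higher at the first than at the second bleeding in each rat. Its FPKM was 16.3, 11.6, 21.9 and 29.3 in Nampt++ samples of rats 1 to 4 and 12.2, 6.07, 12.2 and 15.8 in Nampt+ samples. The controls were at 9.61, 10.7 and 12.2. Every rat was lower at the second bleeding, but by FPKM the lowest Nampt++ sample, of rat 2, lay within the range of the Nampt+ samples and of the controls. The depth that FPKM corrects for includes the haemoglobin counts. These took 37.3% of the counts in that sample and 16.2% to 30.9% in controls. Whether the groups overlap with these counts left out was not examined. The log2 fold change was -0.72 (SE 0.23) for Nampt+ against Nampt++, with an unadjusted p of 0.0116 and an adjusted p of 0.9996 in edgeR. For Nampt++ against controls it was 0.78 (SE 0.28), with an unadjusted p of 0.0226 and an adjusted p of 0.9999 in edgeR. The Nampt++ samples enter both contrasts, so the 2 values are not independent. Nampt+ samples differed from controls by 0.05 (SE 0.20). The two-sided exact permutation test on log2(FPKM + 1) gave p = 0.171 for Nampt+ against Nampt++ and p = 0.0857 for Nampt++ against controls, where 0.0286 is the smallest possible. On this scale limma gave an unadjusted p of 0.0608 for the first contrast. Without the Nampt++ sample of rat 2, Dusp6 was called for Nampt++ against controls (log2 fold change 0.92, ratio of means 2.07), in a fit that called 1.63% of all genes. Without that sample, which had the lowest Nampt, Dusp6 was at -0.86 (unadjusted p = 0.00358, edgeR) for Nampt+ against Nampt++. For Nampt++ against controls, the p of Dusp6 in edgeR was over 0.05 without control 1 or control 3. The same held without the Nampt++ sample of rat 3 or rat 4. With any 1 sample left out, its p for Nampt+ against Nampt++ lay between 0.00358 and 0.0298 in edgeR. Haemoglobin genes took 6.84%, 37.3%, 20.2% and 7.80% of the counts at the first bleeding of rats 1 to 4. At the second they took 25.9%, 42.8%, 18.4% and 14.8%, which was higher in 3 rats and lower in rat 3. With these genes left out before normalization, both contrasts of Dusp6 kept a p under 0.05 in edgeR. That step changed the fit little, with 257 genes at an unadjusted p under 0.05 for Nampt+ against Nampt++ in place of 256. The part of red cell RNA or of the cell mix in the level of Dusp6 was not tested.

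Zfp36l2, a relative of Zfp36 known for its role in lymphocyte development, moved the opposite way. Its FPKM was 45.8, 42.7, 74.1 and 53.1 in Nampt++ samples and 76.8, 45.1, 88.3 and 157 in Nampt+ samples of rats 1 to 4. The controls were at 104, 57.2 and 94.1. All 4 rats were higher at the second bleeding, in rat 2 by little and in rat 4 by most. The log2 fold change was 0.76 (SE 0.28) for Nampt+ against Nampt++, with an unadjusted p of 0.0249 and an adjusted p of 0.9996 in edgeR. It was -0.66 (SE 0.27) for Nampt++ against controls (unadjusted p = 0.0419, adjusted p = 0.9999, edgeR) and 0.09 (SE 0.29) for Nampt+ against controls. With the rat as a replicate block, the unadjusted p of the first contrast was 0.0514 in edgeR, and limma on log2(FPKM + 1) gave 0.0891 without the block. The exact permutation test gave p = 0.143 for the first contrast and p = 0.114 for the second. The p in edgeR passed 0.05 for the first contrast when the first bleeding of rat 1, 2 or 4 or the second of rat 4 was left out, and for the second without control 1 or the Nampt++ sample of rat 1, 2 or 4. Basophil and mast cell markers summed to 63.9 FPKM in the Nampt+ sample of rat 4, where Zfp36l2 was highest, against 7.91 to 36.4 in all other samples. Markers of lymphocytes had negative medians for Nampt++ against controls, as Zfp36l2 did, at -0.10 over 7 T cell markers, -0.47 over 3 B cell markers and -0.64 over 5 NK cell markers. For Nampt+ against Nampt++ the same medians were 0.09, 0.21 and 0.13. The part of these cells in the level of Zfp36l2 was not tested.

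Dusp16, whose product acts on JNK and p38, had 1 sample apart in the Nampt++ group. FPKM was 39.0, 10.6, 43.8 and 41.4 in Nampt++ samples of rats 1 to 4, 10.8, 18.2, 31.5 and 28.3 in Nampt+ samples and 7.62, 32.3 and 10.6 in controls. In the Nampt++ group rats 1, 3 and 4 lay above every other sample, and rat 2 was at the level of control 3. The ratio of the group means was 2.00 for Nampt++ against controls, and edgeR gave a log2 fold change of 0.75 (SE 0.68, unadjusted p = 0.308). Without control 2, Dusp16 was called for Nampt++ against controls, with a log2 fold change of 2.01 (SE 0.52, unadjusted p = 0.00625, adjusted p = 0.546, edgeR) and a ratio of 3.70, in a fit that called 4.09% of all genes against 0.686% with all samples. Without the same control it was also called for Nampt+ against controls, at 1.53 (SE 0.44, unadjusted p = 0.0103, edgeR) and a ratio of 2.44, where 1.2% of all genes were called. These calls rest on 2 controls.

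The other members showed no difference between groups beyond their spread. Dusp2, an inducible nuclear phosphatase of blood cells, had an FPKM of 109, 251 and 37.9 in controls, against 28.9 to 146 in Nampt++ and 43.2 to 97.2 in Nampt+ samples. Its log2 fold change against controls was -0.99 (SE 0.78) for Nampt++ and -0.91 (SE 0.79) for Nampt+, and without control 2, the highest sample, these were 0.15 and 0.24. Dusp5, which encodes a nuclear phosphatase specific for ERK, was at 128 ± 15.4 (SD, n = 4) in Nampt++ samples, at 119 ± 32.9 (SD, n = 4) in Nampt+ samples and at 122 ± 20.4 (SD, n = 3) in controls. Its SEs, from 0.17 to 0.21 on the log2 scale, were among the smallest of the members, and its log2 fold changes were -0.03, 0.03 and -0.01. Dusp10, another phosphatase of p38 and JNK, ran from 6.41 in control 2 to 30.2 in control 3, so the controls alone spanned the values of all CIA samples. Dusp4 lay between 0.430 and 1.63 FPKM in all samples, and the exact permutation test gave p = 0.914, 0.943 and 1 for Nampt+ against Nampt++, Nampt++ against controls and Nampt+ against controls. Zfp36l1, which like Zfp36 binds AU-rich elements, was at 54.0 in Nampt++ samples, 48.0 in Nampt+ samples and 48.5 in controls on average, with log2 fold changes of -0.13 (SE 0.23), 0.15 (SE 0.18) and 0.01 (SE 0.26). Over all members and comparisons the exact permutation p lay between 0.0857 and 1.

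For all 10 members more of the variance lay within the groups than between them. Group means accounted for 42.9% of the variance of log2(FPKM + 1) over the 11 samples for Dusp6, 30.8% for Zfp36l2 and 23.4% for Dusp16, and for 0.517% to 9.34% for the others, where 3 groups of 11 samples that do not differ give 20% on average. The Nampt+ sample of rat 2 was the lowest of all 11 for 4 members, Dusp4, Dusp5, Dusp6 and Zfp36l1. It also had the highest share of haemoglobin counts, 42.8%, and the lowest sum of the 7 T cell markers, 316 FPKM. Control 2 had the second lowest T cell sum, 469, against 575 to 1162 in the others. Dusp10 had its 2 lowest samples in the same pair, at 6.72 and 6.41, as did Dusp5 at 79.2 and 100 and Zfp36l1 at 23.5 and 33.6. By contrast, Dusp1 was at 581 and 879 there, and the neutrophil markers summed to 15450 and 13990. The part of the cell mix in these levels was not tested.

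The MAP kinase cascade, which holds the MAP kinases that DUSPs act on and kinases above and below them, had median changes close to 0. So had the machinery that ZFP36 recruits. Of 38 genes of the MAP kinase cascade 35 were tested and none was called in any comparison. Their median log2 fold changes were -0.10, 0.12 and 0.02 for Nampt+ against Nampt++, Nampt++ against controls and Nampt+ against controls, where the median over all genes was 0.00 in each. Only Mapkapk3, a kinase downstream of p38, had a p under 0.05, with a log2 fold change of -0.45 (SE 0.19) for Nampt+ against Nampt++ (unadjusted p = 0.0427, edgeR). Of 27 genes of deadenylation and decapping 26 were tested, again with none called, at medians of 0.01, -0.01 and 0.01. Among 11 other RNA-binding regulators of decay none was called, and Tia1, a stress granule protein, was at -0.65 (SE 0.27) for Nampt++ against controls (unadjusted p = 0.0449, edgeR). The other 19 Dusp symbols stood on 21 rows, of which 9 passed the filter and none was called, with medians of -0.16, 0.18 and -0.03. Of 14 other feedback inhibitors, such as Socs3 and Nfkbia, 13 were tested and none was called, with medians of -0.29, 0.28 and -0.17.

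Of the transcripts that ZFP36 is known to target, most had lower fitted values in Nampt+ samples and 1 was called. Of 16 tested, 14 had a negative and 2 a positive log2 fold change for Nampt+ against Nampt++, with a median of -0.40. In the same contrast the medians were -0.45 for neutrophil markers and -0.29 for monocyte markers. The part of these cells in the target levels was not tested. Il1a, which encodes interleukin-1 alpha, was called: its FPKM was 6.14, 8.69, 8.06 and 11.3 in Nampt++ samples and 3.15, 2.42, 4.99 and 3.48 in Nampt+ samples of rats 1 to 4. The groups did not overlap, and the log2 fold change was -1.22 (SE 0.24, unadjusted p = 0.000728, adjusted p = 0.9996, edgeR). Against controls, none of these targets was called, with medians of 0.01 for Nampt++ and -0.59 for Nampt+. For Nampt++ against controls 9 targets had positive and 8 negative values. Of these 17, 2 had groups that did not overlap, as had 1.1% of all genes. The highest values were 1.20 for Tnf and 1.25 for LOC103694380 (unadjusted p = 0.063 and 0.0542, edgeR). Tnf and LOC103694380, which carries the annotation of Tnf, may share reads. Zfp36 was at -0.26 (SE 0.50) for Nampt+ against Nampt++ and at -0.31 for Nampt++ against controls, as given above.

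Of the 20 immediate early genes, all tested, Fosb and Egr1 were called. Fosb, an AP-1 subunit gene, stood at 44.7 ± 26.1 FPKM (SD, n = 4) in Nampt++ samples and at 104 ± 37.5 (SD, n = 4) in Nampt+ samples, a log2 fold change of 1.23 (SE 0.39, unadjusted p = 0.0122, edgeR). Egr1, a zinc finger factor induced by ERK signals, was at 561, 834 and 99.4 in controls, and between 56.5 and 161 in all CIA samples. Its log2 fold change was -2.47 (SE 0.72, unadjusted p = 0.00931, edgeR) for Nampt++ and -2.06 (SE 0.70, unadjusted p = 0.0194, edgeR) for Nampt+ against the same controls. Control 3 lay within the CIA samples, so the high values were those of controls 1 and 2. The list as a whole had medians of 0.14, -0.12 and -0.08. Junb, the neighbour of Dusp1 and Zfp36, was not called.

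Dusp1 and Zfp36 are also known to be induced by glucocorticoids, and 6 of 7 genes of that response were tested with none called. Their median log2 fold changes were 0.47, -0.32 and 0.04. Tsc22d3, a glucocorticoid-induced gene also known as Gilz, was at 0.90 (SE 0.33, unadjusted p = 0.0238, edgeR) for Nampt+ against Nampt++ and -0.83 (SE 0.32, unadjusted p = 0.0322, edgeR) for Nampt++ against controls. The circadian gene Per1 was at 0.59 (SE 0.23, unadjusted p = 0.0321, edgeR) for Nampt+ against Nampt++. Tsc22d3 and Zfp36l2 had the same signs in both contrasts, and both were highest in the Nampt+ sample of rat 4, at 264 and 157 FPKM. The Nampt++ samples enter both contrasts, so these signs are not independent. Dusp1 and Zfp36 were at -0.10 and -0.26 for Nampt+ against Nampt++, the opposite sign to the list median. For Nampt++ against controls they were at -0.05 and -0.31, the same sign as the list median. For Nampt+ against controls their values, given above, again had the opposite sign. Their SEs, also given above, leave room for either direction. The part of glucocorticoids in these levels was not tested.

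**Figure D4:**
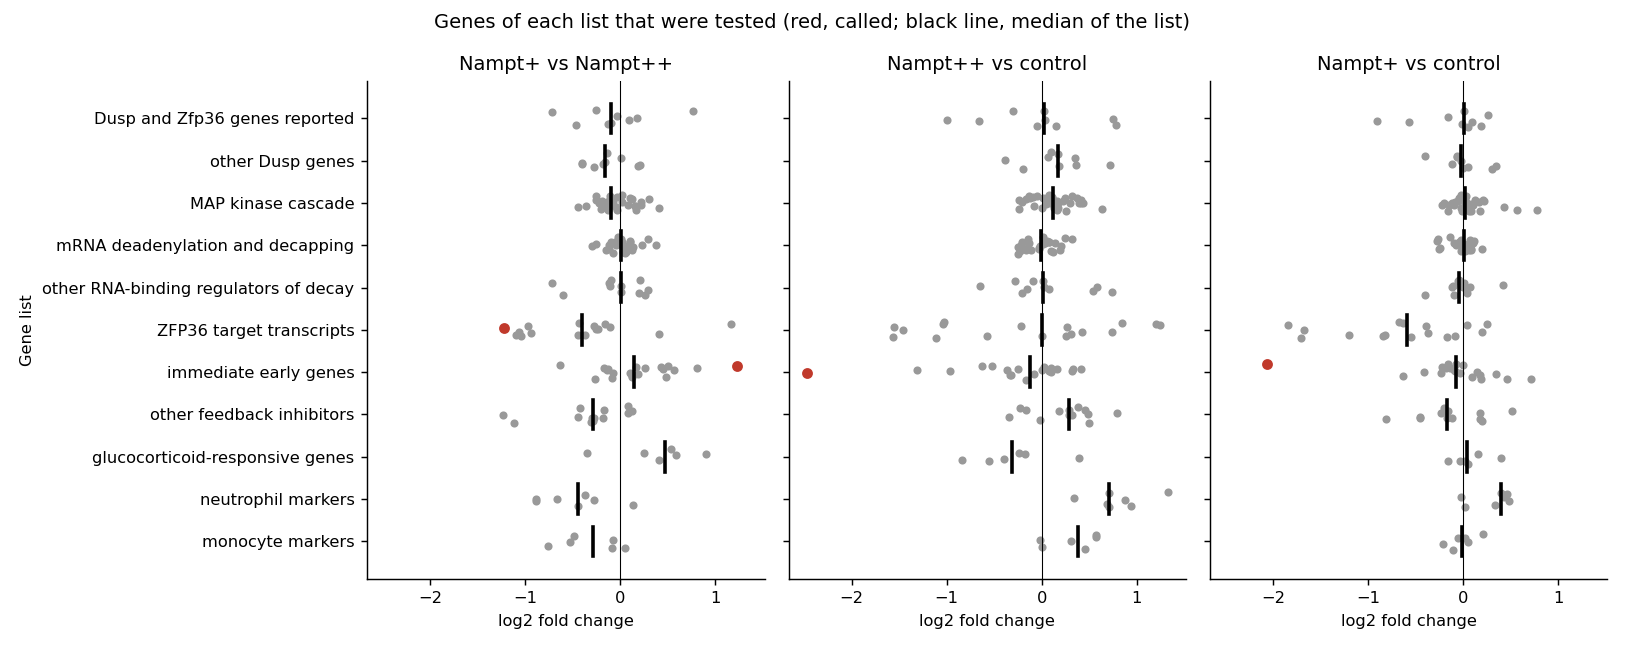
log2 fold change (x axis) of every tested gene in 11 lists for the 3 comparisons; dots are genes, red dots were called, and black lines are list medians. For Nampt+ against Nampt++, ZFP36 target transcripts have a median of -0.40, beside -0.45 for neutrophil markers and -0.29 for monocyte markers and for other feedback inhibitors. The MAP kinase cascade is at -0.10 and the deadenylation genes at 0.01.

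Markers of blood cells are given beside these results because the WBCs are a mixture. For Nampt++ against controls, all 7 neutrophil markers were on the higher side with none called (median 0.71), as were 5 of 6 monocyte markers (median 0.38). For Nampt+ against Nampt++ the medians were -0.45 and -0.29. Defining markers of T cells (Cd3e) and NK cells (Ncr1) were present, and none of the tested genes of the T cell, B cell and NK cell lists was called, with the T cell marker Cd5 at 0.71 (SE 0.17, unadjusted p = 0.00278, edgeR) for Nampt+ against Nampt++ and at -0.64 (unadjusted p = 0.0717, edgeR) for Nampt++ against controls. Of the T cell markers 6 of 7 had negative values for Nampt++ against controls, as had all 3 B cell markers and 3 of 5 NK cell markers. Among the basophil and mast cell markers, Ms4a2, Mcpt8l3 and Mcpt8l2 were called higher in Nampt+ than in Nampt++ samples, with log2 fold changes of 1.94 (SE 0.61), 1.41 (SE 0.50) and 1.31 (SE 0.48). Unadjusted p values in edgeR were 0.0114, 0.0211 and 0.0232. The groups overlapped for each gene. The Nampt+ sample of rat 4 was highest, at 5.125, 24.1 and 27.3 FPKM, followed among Nampt+ samples by rat 3 at 2.64, 8.95 and 10.2. Mcpt8l2 was called lower in Nampt++ samples than in controls, at -1.20 (SE 0.50). The platelet gene Ppbp was called lower in Nampt++ samples than in controls, at -1.09 (SE 0.40), while the other 4 platelet markers lay between -0.04 and 0.37 (list median 0.08). All 4 erythroid markers tested had positive values for Nampt+ against Nampt++ (median 0.99), with none called. The monocyte marker Cd163 was at 0 in all samples.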

How the data were processed

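The counts are whole numbers of reads per gene, which the authors deposited without normalization, and the FPKM values are also those the authors deposited, with 0.0001 read as 0. The submitters' processing notes name cutadapt 1.9, HISAT2 2.0.4 and StringTie 1.3.4. The genome build and the counting method are not given in the sources used here, so reads of near-identical or overlapping genes may be shared. Samples were grouped by the deposited labels. Groups were compared in pairs with edgeR 4.0.16 (quasi-likelihood, TMM; R 4.3.3) over genes whose mean FPKM in the samples compared reached 1, and p values were adjusted over all genes tested (Benjamini-Hochberg). For single genes, log2(FPKM + 1) was tested by exact permutation (two-sided), with p the share of splits with at least as large an absolute difference and 0.0286 the smallest possible. Where named, a second exact test for Nampt+ against Nampt++ flipped the signs of the differences within rats, with 0.125 the smallest possible p.

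Alternatives were limma 3.58.1, DESeq2 1.42.0 and those given in the closing section. Same-numbered CIA samples come from the same rat, by the labels, and after subtracting group means they correlated over 11219 genes at -0.27, -0.24, 0.24 and 0.08 in rats 1, 2, 3 and 4. Nothing in the labels says that samples with a number in common were prepared together. Replicates differed by more than counting error (lowest chi-square per degree of freedom, 271). The edgeR fit and the exact permutation of sample labels were tested on simulated data. Genes named are the 10 members, list genes with the smallest p (at most 4 per list and comparison), the 5 genes most like Dusp1 and Zfp36, and others chosen after values were seen or as background. The others are Nampt, Cd163, Cd3e, Ncr1, Socs3, Nfkbia, Tnf, LOC103694380, S100a8 and S100a9. The members and lists were chosen with earlier results of these data known. Some marker genes are not reported here. The study's PCR, protein and metabolite data were not used here. Of the table's annotation, the gene descriptions served to pick the haemoglobin genes.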

Additional observations from a re-analysis of the deposited data

Results flagged for a closer look

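Of 20 groups of 4 samples tested for a sample apart from the rest (10 genes in Nampt++ and in Nampt+ samples), 1 was flagged. Dusp16 in the Nampt++ sample of rat 2 had an FPKM of 10.6, while the other 3 Nampt++ samples lay between 39.0 and 43.8, and its gap to the nearest of them was 0.855 of the whole range. Chance flags about 1 in 20 groups. The same sample was also the lowest of its group for Dusp1, Dusp2, Dusp4, Dusp5, Dusp6, Zfp36 and Zfp36l2. It had 37.3% of its counts in haemoglobin genes, and had the lowest neutrophil marker sum of its group, 2875 FPKM, and the lowest Nampt of all 11 samples, 10.1 FPKM. Their part in the value was not tested.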

How the results depend on the processing

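No member was called, and none had an adjusted p under 0.05, under any other normalization, filter, tool or scale tried, with all 3 groups in one fit, or with the rat as a replicate block. Of the members with an unadjusted p under 0.05 (2 for Nampt+ against Nampt++), limma left 0 and the replicate block in edgeR left 1, Dusp6, while DESeq2 with the block kept the count at 2. For Nampt++ against controls limma left 1 of the 2. These counts, and those on the likeness of Dusp1 and Zfp36, were added after seeing the data. The number of rats limits all of these results more than depth. The cause of the changes below was not tested.

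Leaving out each sample in turn gave 0 to 1 members called for Nampt++ against controls and 0 to 1 for Nampt+ against controls, and 1 to 2, 0 to 3 and 0 to 1 members with an unadjusted p under 0.05 for Nampt+ against Nampt++, Nampt++ against controls and Nampt+ against controls. The calls were those of Dusp16 without control 2 and of Dusp6 without the Nampt++ sample of rat 2. In the same fits 0.474% to 4.09% of all genes were called for Nampt++ against controls and 0.438% to 1.2% for Nampt+ against controls, and 1.46% to 6.88%, 0.716% to 9.08% and 0.697% to 2.36% had an unadjusted p under 0.05 in the 3 comparisons. Without control 2 the share called was the highest in both.

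Signs of members near 0 turned. For Nampt+ against Nampt++, the log2 fold change of Dusp2 was -0.029 by limma and, with the replicate block, -0.027 by edgeR and -0.041 by DESeq2, and that of Dusp5 was 0.017 with the FPKM minimum raised to 10. For Nampt++ against controls, Dusp1 was at 0.20 by limma. Dusp5 was at -0.036 and Dusp10 at -0.050 with upper quartile scaling, and at -0.038 and -0.046 with the FPKM minimum raised to 10. Zfp36l1 for Nampt+ against controls was at -0.074 by limma.

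Leaving out each sample in turn turned the sign of the following log2 fold changes. For Nampt+ against Nampt++ they ranged from -0.48 to 0.40 for Dusp1, -0.52 to 0.63 for Dusp2, -0.093 to 0.065 for Dusp5 and -0.59 to 0.15 for Zfp36. For Nampt++ against controls they ranged from -0.55 to 0.59 for Dusp1, -1.54 to 0.15 for Dusp2, -0.042 to 0.068 for Dusp5, -0.25 to 0.59 for Dusp10 and -0.79 to 0.11 for Zfp36. For Nampt+ against controls they ranged from -0.64 to 0.49 for Dusp1, -1.54 to 0.24 for Dusp2, -0.081 to 0.091 for Dusp5, -0.044 to 0.25 for Dusp6, -0.088 to 0.76 for Dusp10, -0.12 to 1.53 for Dusp16, -0.25 to 0.12 for Zfp36l1 and -0.17 to 0.27 for Zfp36l2. The differences in mean log2(FPKM + 1) of Dusp4 ranged from -0.10 to 0.19, -0.22 to 0.10 and -0.18 to 0.14 in the 3 comparisons, and those of Dusp6 and Zfp36l2 for Nampt+ against controls from -0.14 to 0.28 and -0.29 to 0.31.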
